A study of Mus musculus with 9 samples.

Results

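Genes of the Wnt pathway were examined in primary mouse hepatic stellate cells that had been given exosomes from 3 sources. A gene belonged to the set when its symbol was that of a Wnt ligand, a Frizzled or other Wnt receptor, a protein that exports, inhibits or removes these, a cytoplasmic or nuclear transducer, or a planar polarity protein. The symbol alone decided membership, and the set held 40 of the 11051 genes in the table.

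Wnt proteins are secreted, lipid-modified ligands that bind Frizzled receptors. Together with the co-receptors Lrp5 and Lrp6, a bound ligand stops a cytoplasmic complex of Axin, Apc, Gsk3b and casein kinase 1 from marking beta-catenin for destruction, and the beta-catenin that builds up joins Tcf and Lef factors on DNA. Other branches work without beta-catenin, through Ror2, Ryk, the Vangl and Prickle polarity proteins and the Daam formins. Hepatic stellate cells are the vitamin A storing cells of the liver sinusoid, which turn into matrix-producing myofibroblasts in fibrosis, and Wnt signals are among those studied in that change.

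All 9 libraries came from stellate cells of C57BL/6 mice, grown with serum depleted of exosomes, and no library of cells without added exosomes was analysed here. Control cells were given exosomes that primary pancreatic duct epithelial cells of the mouse had released. The KPC group and the Panc02 group were given exosomes of the mouse pancreatic adenocarcinoma lines KPC and Panc02. Each group had 3 libraries, numbered 1 to 3 in the labels. Neither the exosome dose nor the length of exposure is stated, and each tumour exosome source is 1 cell line. The design sets tumour exosomes against duct cell exosomes.

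Values are FPKM, fragments per kilobase of transcript and per mapped fragment of the library, so that levels can be set side by side between genes. The number of reads behind each value is unknown. Summed FPKM ran from 257119 to 307280 per library, and 9895 to 10270 genes reached 1 FPKM. The replicate 1 libraries stood apart in every group. Mitochondrially encoded genes took 26.4% of summed FPKM in control 1, 33.6% in KPC 1 and 28.3% in Panc02 1. The share was 15.9% and 14.9% in control libraries 2 and 3, 13.6% and 11.2% in the KPC pair, and 11.2% and 12.8% in the Panc02 pair. Of 19 stellate cell and myofibroblast genes, 13 were in the table, at summed levels of 1523 to 1832 FPKM in control, 1671 to 2313 in KPC and 1937 to 2370 in Panc02 libraries. Abundant genes such as Acta2 made up much of these sums, and single genes went either way. Acta2 was at 299 to 341 FPKM in control, 379 to 499 in KPC and 440 to 568 in Panc02 libraries. Pdgfra was at 37.0 to 43.9, 23.0 to 26.2 and 21.8 to 24.2 FPKM in the same groups, and Dcn at 9.11 to 10.0, 5.22 to 7.69 and 5.13 to 6.19. Des, Lrat, Reln, Hand2, Ngfr and Postn had no row in the table. The table held 1 of 10 hepatocyte genes (Ass1, 3.02 to 4.38 FPKM in control, 5.46 to 13.6 in KPC and 8.61 to 18.4 in Panc02 libraries). It held 2 of 10 endothelial genes, at a summed 1.42 to 1.73 FPKM in control, 1.76 to 1.80 in KPC and 1.77 to 2.08 in Panc02 libraries, and 4 of 10 macrophage genes, at 10.3 to 17.0 in control, 8.73 to 14.9 in KPC and 9.34 to 13.0 in Panc02 libraries. It held 5 of 10 duct epithelial genes, at 21.5 to 23.9 FPKM in control, 23.0 to 25.5 in KPC and 25.8 to 36.7 in Panc02 libraries, most of it Sox9. Epcam was listed at 0 in control 1, control 2, KPC 3 and Panc02 2 and reached 3.89 FPKM in Panc02 1. Krt19 and Krt8 were also highest in Panc02 1, at 3.89 and 6.54 FPKM. Krt8 was at 0.127 to 1.27 FPKM in control, 1.70 to 1.93 in KPC and 2.14 to 6.54 in Panc02 libraries. Sox9 and Krt18 overlapped between control and each tumour group. Fewer cells of a type and less RNA per cell cannot be told apart in such bulk libraries, and the part of these lists in the results below was not tested.

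Stellate cells in this culture carried transcripts for every step of the pathway, and the levels differed widely by role. The ligands, Wnt5a and Wnt9a, were at 1.28 to 6.48 FPKM. The 11 receptors and co-receptors spanned 1.05 to 48.9 FPKM, the 13 cytoplasmic genes 1.23 to 70.5 FPKM, and the 3 nuclear factors 0.357 to 7.61 FPKM. The 5 polarity and actin genes were at 0.588 to 10.6 FPKM. Summed over all 40 genes, the set took 349 to 449 FPKM per library, which was 0.114% to 0.174% of the total. The test was limited to genes that reached 1 FPKM in 3 or more libraries, and 37 of the 40 did. Porcn, Lef1 and Daam2 fell under that limit.

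**Figure D1:**
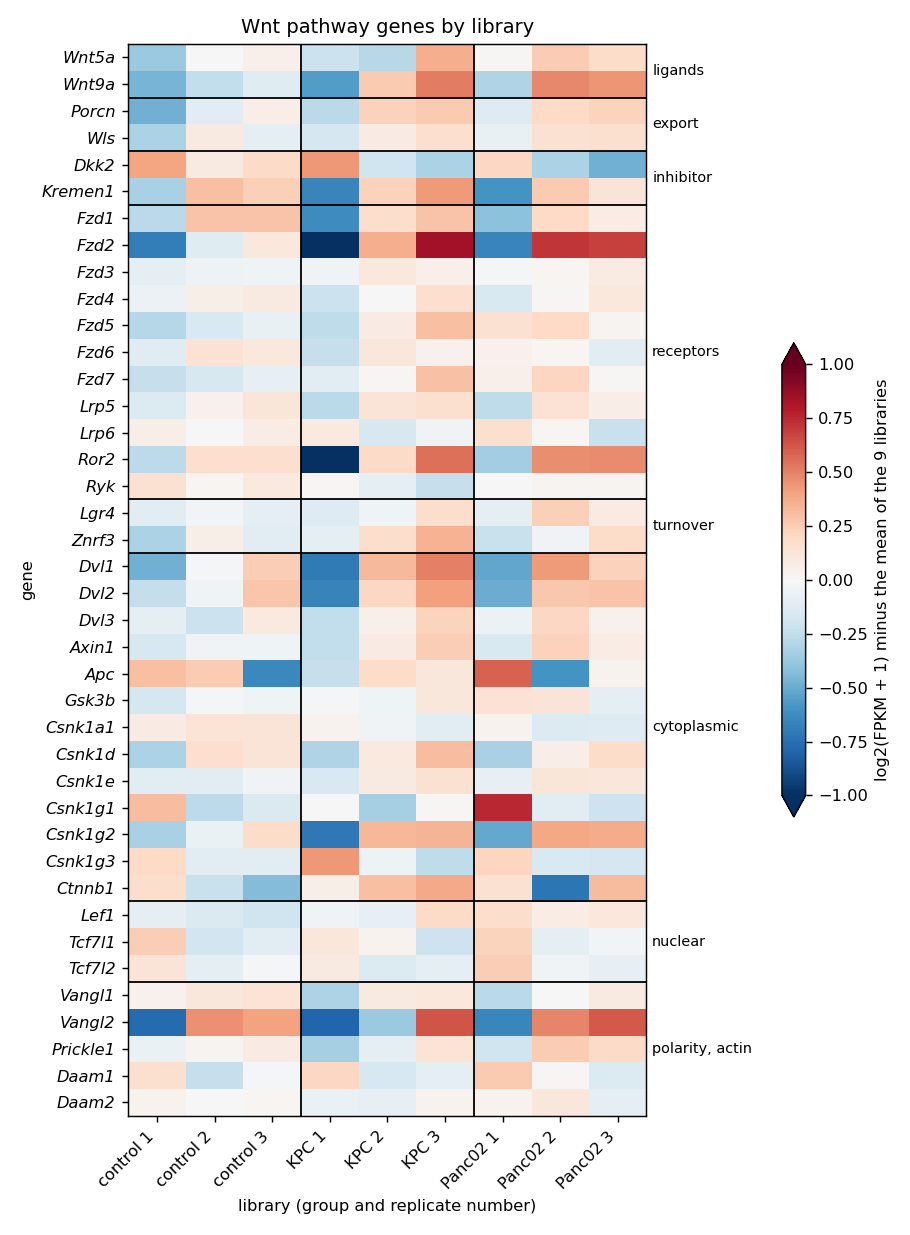
Each row is 1 of the 40 Wnt pathway genes, grouped by role, and each column is 1 of the 9 libraries. Colour gives log2(FPKM + 1) minus that gene's mean over the 9 libraries, with the scale closed at -1 and 1. The replicate 1 columns of all 3 groups share a pattern, with Fzd2, Ror2, Vangl2, Dvl1 and Wnt9a low and Dkk2 high.

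No Wnt pathway gene passed the test in any comparison. With limma on log2(FPKM + 1) and Benjamini-Hochberg adjustment over all 10368 tested genes, 0 of 37 genes had an adjusted p under 0.05 for KPC against control, where 0.328% of all genes did. The count was 0 of 37 for Panc02 against control, beside 1.01% of all genes, and 0 of 37 for both tumour groups against control, beside 1.26%. It was also 0 of 37 for Panc02 against KPC, where 0% of all genes passed. At an unadjusted p under 0.05 the same limma fits gave 0 of 37 genes in each of the 4 comparisons, against 6.54%, 9.6%, 10.2% and 0.829% of all genes. The adjusted counts of 0 lie close to the small adjusted shares of the whole table and do not set the Wnt genes apart. The unadjusted counts of 0 were below the shares of all genes in the comparisons with control, and that difference was not tested. Whether the replicates are separate cultures or animals is not said in the labels, and each p therefore refers to the spread between these samples only. With the replicate number as a block the adjusted count was again 0 of 37 in every comparison. Of all genes 1.68% then passed for KPC, 4.24% for Panc02, 4.55% for both tumour groups and 0% between the tumour groups. The unadjusted counts did not stay at 0 in that fit. They were 3 of 37 for KPC, 6 for Panc02, 6 for both tumour groups and 0 between the tumour groups. The matching shares of all genes are not given here, so these counts say nothing particular to the Wnt genes.

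The intervals say how large a change the libraries leave room for. For KPC against control, the 95% interval of the log2 fold change lay within 1 either side of 0 for 32 of 37 genes, compared with 92.2% of all genes. The 5 exceptions were Wnt9a, Fzd2, Ror2, Ctnnb1 and Vangl2. For Panc02 against control it did so for 33 of 37, with Wnt9a, Fzd2, Ror2 and Vangl2 as the exceptions, compared with 91.1% of all genes. The median log2 fold change of the 37 was 0.04 for KPC and 0.08 for Panc02 against control, and that of all tested genes was -0.01 and 0.00. Both comparisons use the same control libraries.

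**Figure D2:**
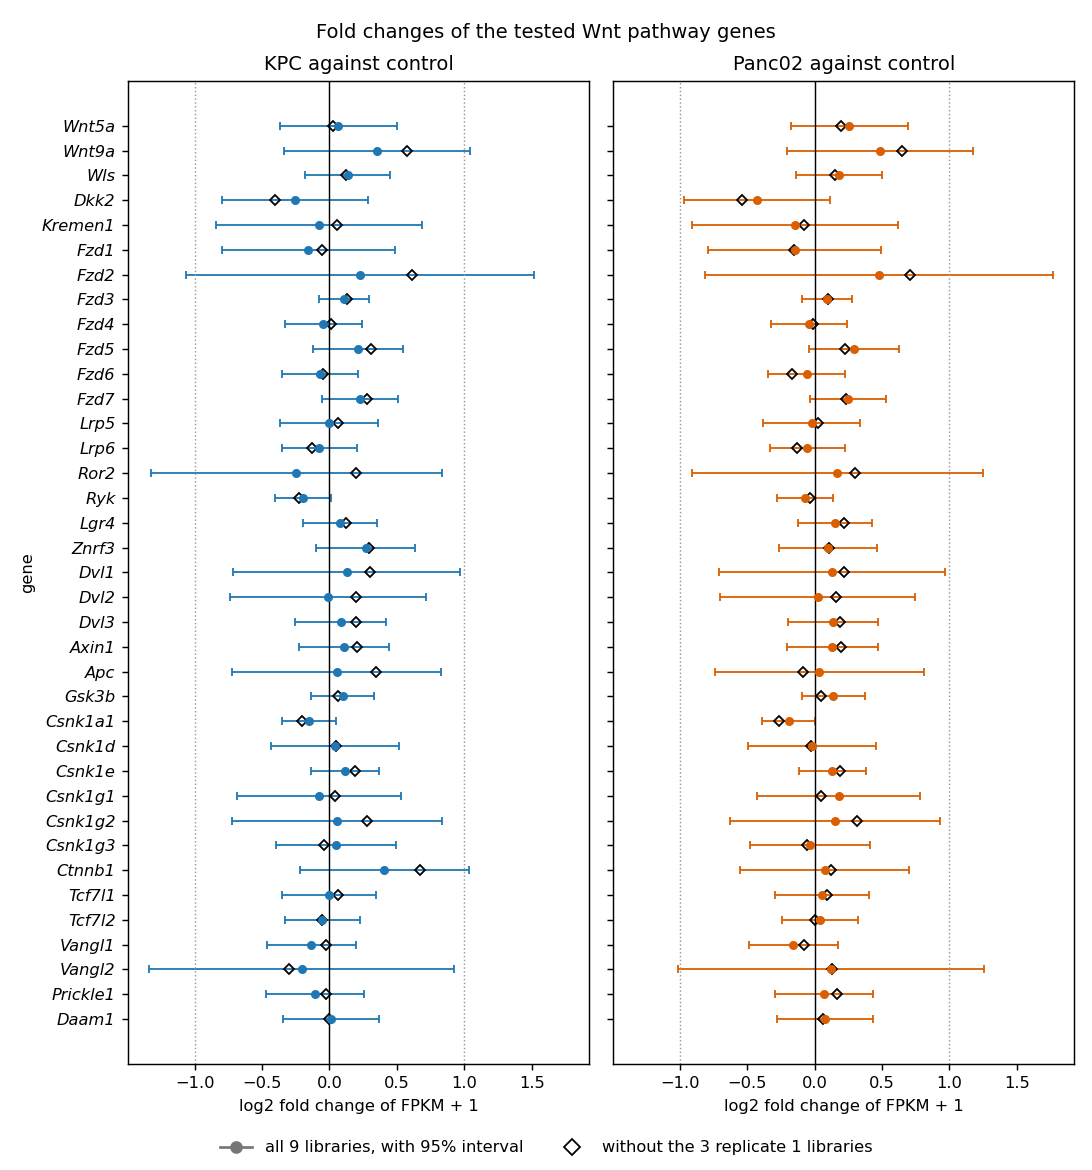
Log2 fold changes of FPKM + 1 for the 37 tested genes, KPC against control on the left and Panc02 against control on the right. Filled points with bars are the fit to all 9 libraries with its 95% interval, and open diamonds are the fit without the 3 replicate 1 libraries. Every bar spans 0, and the diamonds of Wnt9a and Fzd2 lie to the right and those of Dkk2 to the left of their filled points in both panels.

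The ligand Wnt9a had the largest fitted fold change of the 37 genes for Panc02 against control, and it did not pass. Wnt9a is a Wnt family ligand best known from joint and limb development, and its gene (ENSMUSG00000000126.11) lies on chromosome 11 of GRCm38 at 59306928 to 59333552 on the plus strand. Its level was 1.43, 1.83 and 2.08 FPKM in control libraries 1, 2 and 3. It was 1.28, 3.04 and 3.80 FPKM in the KPC libraries and 1.72, 3.67 and 3.56 FPKM in the Panc02 libraries. Replicate 1 was the lowest library of each group, and replicates 2 and 3 of both tumour groups were above every control library. The groups as a whole overlapped. The log2 fold change was 0.35 for KPC (SE 0.30, 95% interval -0.34 to 1.04, limma adjusted p = 1.00) and 0.48 for Panc02 (SE 0.30, interval -0.21 to 1.18, limma adjusted p = 0.791).

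Compared by replicate number, Wnt9a differed from control by -0.09, 0.51 and 0.64 on the log2 scale in the KPC libraries 1, 2 and 3, and by 0.16, 0.73 and 0.57 in the Panc02 libraries. The difference in replicate 1 was thus small or of the other sign. With the 3 replicate 1 libraries left out, which leaves 2 per group, Wnt9a was higher in Panc02 than in control by 0.65 (SE 0.12, limma adjusted p = 0.0325). It was higher in both tumour groups as a whole by 0.61 (SE 0.10, limma adjusted p = 0.0202). For KPC alone the value was 0.58 (SE 0.12, limma adjusted p = 0.0623). In the fit to all 9 libraries with the replicate number as a block, Wnt9a did not pass. The limma adjusted p was then 0.339 for KPC, 0.126 for Panc02 and 0.116 for both tumour groups.

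Wnt5a, the ligand most tied to Ror2 and the beta-catenin independent branch, was the more abundant of the pair. It was at 3.50, 4.78 and 5.00 FPKM in control, 3.99, 3.80 and 6.48 in KPC and 4.86, 5.91 and 5.60 in Panc02 libraries. The groups overlapped, and the log2 fold change was 0.07 for KPC (SE 0.19, limma adjusted p = 1.00) and 0.26 for Panc02 (SE 0.19, limma adjusted p = 0.881). An antisense gene overlaps Wnt5a, and whether reads were counted by strand is not stated, so its level may hold reads of both. Other Wnt ligands had no row in the table.

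Wls, the carrier that takes Wnt proteins to the cell surface, was at 12.6, 17.0 and 14.8 FPKM in control, 14.0, 16.9 and 17.9 in KPC and 15.0, 17.7 and 17.8 in Panc02 libraries. Its groups overlapped, and its log2 fold changes were 0.13 (SE 0.14) and 0.18 (SE 0.14), with limma adjusted p = 1.00 and 0.891. Porcn, the enzyme that attaches the lipid to Wnt proteins, stayed under 1 FPKM everywhere. It was listed at 0.122, 0.450 and 0.642 FPKM in control, 0.298, 0.840 and 0.876 in KPC and 0.435, 0.802 and 0.828 in Panc02 libraries, lowest in replicate 1 of each group.

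Dkk2 was the only secreted Wnt inhibitor analysed here, and its fitted fold changes had the opposite sign to those of Wnt9a. Dkk proteins bind Lrp5 and Lrp6 and, with Kremen receptors, take them off the cell surface. The gene (ENSMUSG00000028031.6) lies on chromosome 3 of GRCm38 at 132085292 to 132180304 on the plus strand. Dkk2 was at 15.3, 12.1 and 13.1 FPKM in control libraries, 15.6, 9.73 and 8.88 in KPC libraries and 13.2, 8.89 and 7.85 in Panc02 libraries. Here replicate 1 was the highest library of each group, and the other 4 tumour exosome libraries were below every control library. The log2 fold change was -0.26 for KPC (SE 0.24, interval -0.80 to 0.28, limma adjusted p = 1.00) and -0.42 for Panc02 (SE 0.24, interval -0.96 to 0.12, limma adjusted p = 0.721).

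Set beside the control library of the same number, Dkk2 in the Panc02 libraries 1, 2 and 3 differed by -0.19, -0.41 and -0.67 on the log2 scale. The labels do not say that libraries of 1 number are matched. Without the replicate 1 libraries the fold change was -0.54 for Panc02 (SE 0.10, limma adjusted p = 0.0323) and -0.47 for both tumour groups (SE 0.08, limma adjusted p = 0.0259). For KPC alone it was -0.40 (SE 0.10, limma adjusted p = 0.0916). In the block fit Dkk2 did not pass, with limma adjusted p = 0.357 for KPC, 0.0849 for Panc02 and 0.0964 for both tumour groups. Kremen1, the Dkk receptor, was at 2.87, 4.96 and 4.72 FPKM in control, 2.06, 4.67 and 5.49 in KPC and 2.19, 4.79 and 4.28 in Panc02 libraries. Its spread followed the replicate number and its groups overlapped.

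**Figure D3:**
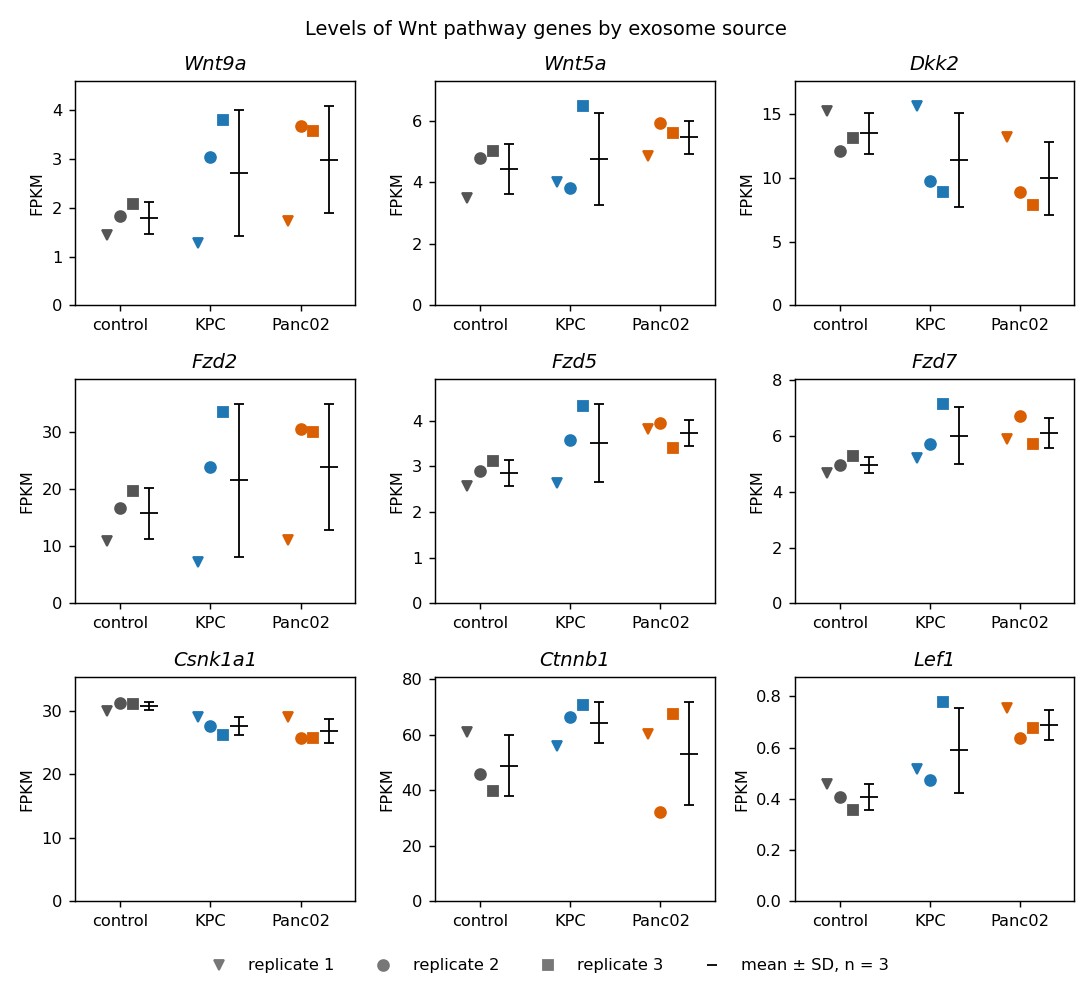
FPKM of 9 Wnt pathway genes in each library, by exosome source. Triangles, circles and squares are replicates 1, 2 and 3, and the bar beside each group is the mean ± SD (n = 3). For Wnt9a and Fzd2 the circles and squares of the tumour groups lie above all control points while the triangles do not, and for Dkk2 they lie below. Csnk1a1 and Lef1 have control points separate from all tumour points.

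Of the 7 Frizzled receptors in the table, Fzd2 was the most abundant and the most variable. Fzd2 is a single-exon receptor gene (ENSMUSG00000050288.6, chromosome 11 of GRCm38, 102604396 to 102608058, plus strand) whose product can bind Wnt5a among other ligands, and it is named because of its values, which were seen first. It was at 11.0, 16.8 and 19.8 FPKM in control, 7.20, 23.9 and 33.6 in KPC and 11.2, 30.7 and 30.0 in Panc02 libraries. All replicate 1 libraries were below all others, and the tumour libraries 2 and 3 were above every control library. The log2 fold change was 0.23 for KPC (SE 0.56, interval -1.06 to 1.52) and 0.48 for Panc02 (SE 0.56, interval -0.81 to 1.77), each with limma adjusted p = 1.00. Without the replicate 1 libraries, Fzd2 was higher in both tumour groups as a whole by 0.66 (SE 0.14, limma adjusted p = 0.0360). The value was 0.61 for KPC (limma adjusted p = 0.102) and 0.71 for Panc02 (limma adjusted p = 0.0538). In the block fit Fzd2 did not pass, with limma adjusted p = 0.717 for KPC, 0.298 for Panc02 and 0.361 for both tumour groups.

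Fzd5 and Fzd7 had Panc02 libraries that lay wholly above control. Fzd7 was at 4.67, 4.94 and 5.27 FPKM in control, 5.20, 5.70 and 7.14 in KPC and 5.87, 6.70 and 5.71 in Panc02 libraries. Its log2 fold change was 0.25 for Panc02 (SE 0.12, limma adjusted p = 0.622) and 0.23 for KPC (SE 0.12, limma adjusted p = 0.963). Fzd5 was at 2.56, 2.89 and 3.11 FPKM in control, 2.63, 3.59 and 4.33 in KPC and 3.81, 3.96 and 3.41 in Panc02 libraries. For Panc02 its log2 fold change was 0.30 (SE 0.15, limma adjusted p = 0.624), and the KPC libraries overlapped control.

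Fzd3, a receptor known for axon guidance, was near 1 FPKM, at 1.05, 1.12 and 1.13 in control, 1.15, 1.38 and 1.28 in KPC and 1.17, 1.23 and 1.33 in Panc02 libraries. All 6 tumour exosome libraries were above control, by small steps: the log2 fold changes were 0.11 and 0.09 (SE 0.08 each; limma adjusted p = 1.00 and 0.963). Fzd1 ranged from 4.51 to 9.43 FPKM, Fzd4 from 1.56 to 2.35 and Fzd6 from 2.55 to 3.60, with overlapping groups.

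Ryk, a Wnt-binding receptor with an inactive kinase domain, was the most abundant receptor of the set. It was at 48.9, 44.6 and 47.2 FPKM in control, 44.4, 40.9 and 37.3 in KPC and 43.8, 44.7 and 44.9 in Panc02 libraries. The KPC libraries lay below control, with a log2 fold change of -0.20 (SE 0.09, interval -0.40 to 0.01, limma adjusted p = 0.811). Panc02 overlapped control, at -0.07 (SE 0.09, limma adjusted p = 1.00). The difference between the tumour groups was 0.12 (SE 0.09, limma adjusted p = 1.00).

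The co-receptors Lrp5 and Lrp6 were at 3.65 to 5.27 and 6.97 to 9.39 FPKM, and their groups overlapped. Ror2, a kinase-like Wnt5a receptor, was at 3.76, 5.41 and 5.41 FPKM in control, 1.16, 5.50 and 7.34 in KPC and 3.48, 6.86 and 6.92 in Panc02 libraries. As with Fzd2, its replicate 1 values were the lowest and its other tumour libraries were above control.

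Of the genes for receptor turnover, Lgr4 is a receptor for R-spondins and Znrf3 is the ubiquitin ligase that R-spondins hold off from Frizzled receptors. Lgr4 was at 5.93, 6.37 and 6.07 FPKM in control, 5.87, 6.28 and 7.51 in KPC and 6.07, 7.86 and 6.94 in Panc02 libraries. Znrf3, which is itself often induced by beta-catenin, was at 1.45, 2.17 and 1.82 FPKM in control, 1.86, 2.44 and 2.87 in KPC and 1.61, 1.98 and 2.46 in Panc02 libraries. Both genes overlapped between groups. The largest log2 fold change of the pair was 0.27 for Znrf3 in KPC (SE 0.16, limma adjusted p = 1.00).

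Ctnnb1, which encodes beta-catenin, had the highest level of the set and a wide spread. It was at 61.0, 46.0 and 39.6 FPKM in control, 56.0, 66.4 and 70.5 in KPC and 60.1, 32.2 and 67.3 in Panc02 libraries. The lowest and the next to highest value both came from the Panc02 group. The log2 fold change was 0.41 for KPC (SE 0.27, interval -0.22 to 1.03, limma adjusted p = 1.00) and 0.08 for Panc02 (SE 0.27, limma adjusted p = 1.00). Exons of Ulk4 overlap Ctnnb1 on the other strand, so the level may hold reads of both.

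Csnk1a1, the kinase that gives beta-catenin its priming phosphate, was lower in every tumour exosome library than in every control library. It was at 30.0, 31.2 and 31.1 FPKM in control, 29.0, 27.7 and 26.2 in KPC and 29.1, 25.7 and 25.8 in Panc02 libraries. The log2 fold change was -0.15 for KPC (SE 0.09, limma adjusted p = 0.994) and -0.19 for Panc02 (SE 0.09, interval -0.39 to 0.01, limma adjusted p = 0.549). For both tumour groups it was -0.17 (SE 0.07, limma adjusted p = 0.491), the lowest adjusted p of the set in that comparison.

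Of the destruction complex scaffolds, Axin1 was at 15.0 to 21.4 FPKM and Apc at 3.31 to 9.11 FPKM, and the kinase Gsk3b was at 9.61 to 12.3 FPKM. Groups overlapped for all 3. The Dishevelled adaptors, which pass the signal from Frizzled receptors, were at 3.78 to 10.1 FPKM for Dvl1, 3.34 to 8.15 for Dvl2 and 5.32 to 7.75 for Dvl3. The kinases Csnk1d (19.0 to 30.0 FPKM) and Csnk1e (8.01 to 10.1 FPKM), which act on Dishevelled, overlapped between groups as well. So did Csnk1g1, Csnk1g2 and Csnk1g3, at 1.23 to 3.72, 12.1 to 27.2 and 13.5 to 22.3 FPKM. Csnk1g kinases act on Lrp6. Genes on the other strand overlap exons of Csnk1d, Csnk1e, Dvl1, Dvl2, Fzd5, Fzd6, Tcf7l1 and Vangl1, so these levels carry the same doubt as that of Ctnnb1.

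Lef1, a DNA-binding partner of beta-catenin, was below the limit for testing and was higher in all 6 tumour exosome libraries than in the controls. That separation is named because the values were seen, and 8.56% of all tested genes separated, higher or lower, in the same comparison. Lef1 was at 0.459, 0.408 and 0.357 FPKM in control, 0.517, 0.473 and 0.779 in KPC and 0.753, 0.638 and 0.675 in Panc02 libraries. In a fit with every gene of the table its log2 fold change was 0.17 for KPC (limma adjusted p = 0.941) and 0.26 for Panc02 (limma adjusted p = 0.357), which understates the ratio at such levels. Compared by replicate number, Panc02 exceeded control by 0.27, 0.22 and 0.30, and the sign follows from that separation. An antisense gene overlaps Lef1, and its level was under 1 FPKM throughout.

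Tcf7l1, which mostly acts as a repressor, was at 7.61, 5.37 and 5.76 FPKM in control, 6.88, 6.47 and 5.28 in KPC and 7.48, 5.85 and 6.15 in Panc02 libraries. Tcf7l2 was at 2.55 to 3.64 FPKM. Both overlapped between groups, with log2 fold changes from -0.05 to 0.05 in KPC and Panc02 against control.

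Among the polarity genes, Vangl1, a membrane protein of the planar polarity core, was at 4.85, 5.16 and 5.26 FPKM in control, 3.58, 5.06 and 5.13 in KPC and 3.72, 4.69 and 5.06 in Panc02 libraries. Its paralog Vangl2 was at 0.612, 2.76 and 2.62 FPKM in control, 0.588, 1.12 and 3.26 in KPC and 0.744, 2.86 and 3.21 in Panc02 libraries. The 3 lowest Vangl2 values were the replicate 1 libraries, and the groups overlapped for both genes. Daam1, a formin that ties Dishevelled to actin, was at 9.79, 7.23 and 8.51 FPKM in control, 10.1, 7.62 and 8.06 in KPC and 10.6, 8.73 and 7.79 in Panc02 libraries. Prickle1 was at 3.60 to 5.91 FPKM and Daam2 at 0.756 to 1.02 FPKM, with no separation of the groups.

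Separation was counted over the tested genes of the set, which leaves out Lef1. For KPC, 3 of 37 had libraries that did not overlap control (Fzd3 higher, Ryk and Csnk1a1 lower), where 11.4% of all genes did. For Panc02 there were 4 of 37 (Fzd3, Fzd5 and Fzd7 higher, Csnk1a1 lower), where 16.1% of all genes did. For both tumour groups against control there were 2 of 37 (Fzd3 and Csnk1a1), where 8.56% of all genes separated. Those shares are close to or under the background. Between Panc02 and KPC, 0 of 37 genes separated, where 2.62% of all genes did. Log2 differences between the tumour groups ran from -0.33 for Ctnnb1 to 0.42 for Ror2, and the interval was within 1 of 0 for 34 of 37 genes.

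Levels also varied with the replicate number. In 14 of 37 tested genes all 3 replicate 1 libraries were below all 6 others, where 33.5% of all genes showed this, and in 5 of 37 they were above, where 10.9% did. The 5 were Dkk2, Csnk1g3, Tcf7l1, Tcf7l2 and Daam1. The replicate 1 mean of log2(FPKM + 1) differed from that of replicates 2 and 3 by -1.29 for Fzd2, -1.11 for Vangl2, -1.01 for Ror2, -0.86 for Dvl1, -0.66 for Wnt9a and 0.52 for Dkk2. These genes were picked for their large shifts. Others shifted less than their fold change against control, such as Csnk1a1, at 0.07 beside -0.19 for Panc02, and Fzd5, at -0.19 beside 0.30.

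Genes low in replicate 1 had transcripts rich in G and C. The longest coding transcript had a median of 56.5% G and C (46.3% to 60.6%) for the 14 genes that were lower, 46.1% (43.2% to 59.3%) for the 5 that were higher and 47.7% (40.3% to 56.4%) for the 18 others. Across the 37 genes, the shift and the G and C share had Pearson's r of -0.640 and Spearman's rho of -0.680. Over the 10311 genes of the table with a transcript, r was -0.593 and rho -0.611. Genes are not independent replicates, and all points share the same 9 libraries.

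**Figure D4:**
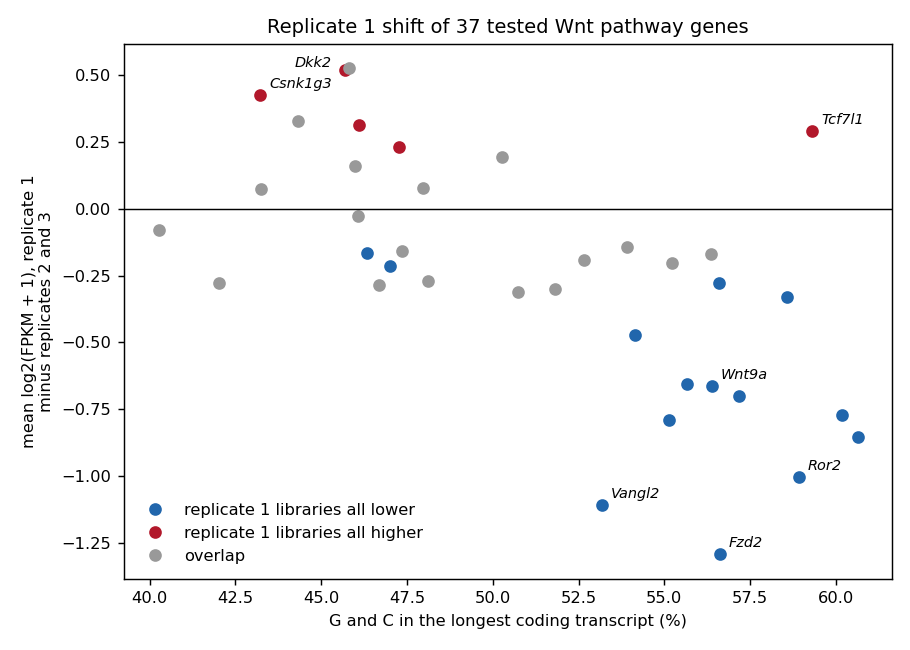
Each point is 1 of the 37 tested Wnt pathway genes. The horizontal axis is the percentage of G and C in its longest coding transcript, and the vertical axis is the mean log2(FPKM + 1) of the replicate 1 libraries minus that of replicates 2 and 3. Fzd2, Ror2 and Wnt9a, towards the upper end of the horizontal axis, are far below 0, and Dkk2 and Csnk1g3, towards its lower end, are above 0. Others depart from this: Tcf7l1, at 59.3% G and C, is above 0, and Fzd3 and Wls, at 40.3% and 42.0%, are below 0.

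The same measure moved with the fold changes, and more so once the replicate 1 libraries were left out. Without them, log2 fold changes against G and C share had rho of 0.426 for KPC and 0.517 for Panc02 over the 37 genes. Over all genes these values were 0.485 and 0.455. With all 9 libraries the values were 0.126 and 0.220 for the 37 genes, and 0.181 and 0.283 over all genes. Wnt9a and Fzd2 transcripts hold 56.4% and 56.6% G and C, and the Dkk2 transcript 45.7%. Control libraries 2 and 3 also had a higher mitochondrial share than the tumour libraries with those numbers. The part of base composition and of mitochondrial share in the differences of Wnt9a, Dkk2 and Fzd2 was not tested. Without the replicate 1 libraries, 4.6% of all tested genes passed for Panc02 (2.53% higher and 2.07% lower), beside 2 of 37 Wnt pathway genes (1 higher and 1 lower). For both tumour groups 7.3% passed (4.27% higher and 3.03% lower), beside 3 of 37 (2 higher and 1 lower). For KPC 1.72% passed, beside 0 of 37, and between the tumour groups 0.0772%, beside 0 of 37.

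Promoter sequence was looked up for the genes of the set and searched for TCF and LEF motifs. RefSeq windows on GRCm38.p6, from 250 bases before to 50 bases after a transcript start, were found for 25 of the 40 genes, 37 windows in all. No window was found for Fzd2, so its promoter was not read. The windows of Wnt9a and Dkk2 are shown because these genes passed without the replicate 1 libraries, and that of Fzd7 because it holds a motif. Wnt9a is at chr11:59306680-59306979, Dkk2 at chr3:132085042-132085341 and Fzd7 at chr1:59481897-59482196, all on the plus strand. Capitals mark the motif AACAAAG, which starts 130 bases before the RefSeq start of Fzd7. In the expression table the Fzd7 gene starts further on, at 59482424, so the whole Fzd7 window lies before that start.
Wnt9a: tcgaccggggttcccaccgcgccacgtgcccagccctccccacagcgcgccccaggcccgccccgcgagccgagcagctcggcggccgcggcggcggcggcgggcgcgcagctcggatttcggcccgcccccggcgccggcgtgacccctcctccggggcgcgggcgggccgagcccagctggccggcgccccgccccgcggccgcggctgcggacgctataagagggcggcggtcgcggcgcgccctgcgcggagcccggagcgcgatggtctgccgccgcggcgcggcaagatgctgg
Dkk2: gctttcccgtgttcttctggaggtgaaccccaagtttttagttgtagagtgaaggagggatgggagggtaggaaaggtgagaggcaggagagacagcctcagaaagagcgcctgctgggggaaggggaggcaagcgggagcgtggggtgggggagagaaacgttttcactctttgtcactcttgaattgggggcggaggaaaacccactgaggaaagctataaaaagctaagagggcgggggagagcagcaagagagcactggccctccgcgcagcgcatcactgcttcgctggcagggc
Fzd7: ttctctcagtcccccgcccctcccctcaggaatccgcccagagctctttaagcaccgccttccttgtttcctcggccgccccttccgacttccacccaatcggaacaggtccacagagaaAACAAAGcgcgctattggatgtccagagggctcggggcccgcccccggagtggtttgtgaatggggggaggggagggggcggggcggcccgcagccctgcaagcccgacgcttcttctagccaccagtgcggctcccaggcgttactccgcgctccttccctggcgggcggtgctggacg

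The Wnt9a window is 83.3% G and C, the Dkk2 window 57.7% and the Fzd7 window 66.7%. The letters searched, on both strands, were NNCAAAG with each N either A or T. A match was present in 3 of 37 windows (8.11%), in Fzd7, Lef1 and Tcf7l2, compared with 16.9% of the 32851 windows of all genes. For Lef1 it was in the window at chr3:131156044-131156343, and for Tcf7l2 in that at chr19:55895071-55895370. Both windows are at alternative starts inside the gene, and the windows near the gene starts of Lef1 and Tcf7l2 held no match. The median G and C share was 67.3% in the windows of the set and 52.7% in all windows, and a match is a description of the letters only.

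The wider pathway was read from a list of 71 components outside the set. Of these, 49 were in the table and 47 were tested. For KPC and for Panc02 against control 0 of 47 passed, where 0.125% of all genes rose and 0.203% fell for KPC and 0.434% rose and 0.579% fell for Panc02. For both tumour groups 1 rose and 0 fell, where 0.463% of all genes rose and 0.801% fell, and the median log2 fold change of the 47 was 0.01. That gene was Cthrc1, which encodes a secreted protein that binds Wnt, Frizzled and Ror2. It was at 1.10, 1.39 and 1.19 FPKM in control, 1.89, 2.64 and 2.31 in KPC and 2.22, 2.84 and 2.28 in Panc02 libraries. All tumour libraries were above all controls, replicate 1 included. The log2 fold change was 0.59 (SE 0.10, limma adjusted p = 0.0383), and that call was lost on leaving out any library other than KPC 1, with fold changes of 0.55 to 0.65 and adjusted p of up to 0.221, and with equal library totals (adjusted p = 0.142). Without the replicate 1 libraries Cthrc1 was the only gene of the list to pass, for Panc02 and for both tumour groups. With the replicate number as a block, Cthrc1 passed for KPC (0.56, adjusted p = 0.0221) and for Panc02 (0.63, adjusted p = 0.0073).

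Other genes of that list with the lowest p did not pass. Nfatc1, a calcium-responsive factor, had a log2 fold change of 0.56 for Panc02 (SE 0.16, limma adjusted p = 0.221, and 0.0457 with the block). Frat2, a Gsk3-binding protein, was at -0.26 for KPC and -0.29 for Panc02 (limma adjusted p = 0.831 and 0.480). For KPC, Btrc was at -0.18 and Tle1 at 0.18, and for Panc02, Camk2d was at -0.35.

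Of 35 genes widely described as responding to beta-catenin, Id2 and Fst fell with both tumour exosomes and 0 rose in the fit to all 9 libraries. From that list 22 were in the table and all 22 were tested. For KPC 0 rose and 0 fell, for Panc02 0 rose and 1 fell, and for both tumour groups 0 rose and 2 fell. Over all genes, 0.125% rose and 0.203% fell for KPC, 0.434% and 0.579% for Panc02, and 0.463% and 0.801% for both tumour groups. The median log2 fold changes were 0.03, 0.05 and 0.02. Id2, which encodes an inhibitor of basic helix-loop-helix factors and also answers to BMP and TGF-beta signals, fell for Panc02 by 1.08 on the log2 scale (SE 0.13, limma adjusted p = 0.0086). For KPC its value was -0.83 (limma adjusted p = 0.0525, and 0.0224 with the block). Fst, the activin-binding protein follistatin, was at 5.37, 5.32 and 5.10 FPKM in control, 3.79, 3.58 and 2.99 in KPC and 3.72, 3.09 and 3.32 in Panc02 libraries. The groups were separate, and for both tumour groups together Fst fell by 0.51 (SE 0.09, limma adjusted p = 0.0383). It did not pass for KPC or Panc02 alone (limma adjusted p = 0.156 and 0.0663).

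Some of these calls were lost when a library was left out. For Fst the adjusted p was up to 0.215 on leaving out any library other than KPC 1, with fold changes of -0.54 to -0.47, and it was 0.0688 with equal library totals and 0.0982 with equal totals without mitochondrial genes. For Id2 in Panc02 it was 0.0616, 0.0713 and 0.0587 without control 2, control 3 and Panc02 2, with fold changes of -1.14 to -1.05, and for both tumour groups it was 0.0616 and 0.0640 without control 2 and control 3. Leaving out the replicate 1 libraries, 5 of 22 passed for Panc02 (Wisp1 and Ephb2 higher, Id2, Fst and Trib2 lower), where 4.6% of all genes did. For both tumour groups 6 of 22 passed, with Wisp2 higher as well, where 7.3% of all genes did. With the replicate block 1 gene of the list rose and 2 fell for KPC, where 0.588% of all genes rose and 1.09% fell. For Panc02, 2 rose (Wisp1 and Ephb2) and 3 fell (Id2, Fst and Trib2), where 1.85% of all genes rose and 2.39% fell. Wisp1, a secreted matricellular protein, had a log2 fold change of 0.85 for Panc02 (limma adjusted p = 0.105, and 0.0110 with the block), and for Ephb2, an ephrin receptor, it was 0.56 (0.176, and 0.0332 with the block).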

How the data were processed

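RNA of 9 libraries was extracted with Trizol and made into TruSeq libraries, per the labels' protocols. The deposited values are FPKM for 11051 genes. Per the submitters' processing notes, cutadapt, HISAT2 2.0.4 and StringTie 1.2.3 were used with GRCm38. Annotation release, strand setting and row filter are not stated. FPKM values of low genes showed no steps of whole reads, so the depth is unknown.

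Values were converted to log2(FPKM + 1), and the 10368 genes that reached 1 FPKM in 3 or more of the 9 libraries entered limma 3.58.1 (R 4.3.3), which had 1 mean per group and a trended prior. Tests were two-sided, with Benjamini-Hochberg adjustment over all tested genes and a threshold of 0.05. The fit was tested on simulated data with independent noise in each library. Those data held no shared replicate effect, so that test does not cover the replicate 1 shift. The gene set, the lists and the settings were chosen with earlier results of these data known. Genes named in full are Wnt9a, the 4 tested genes with the lowest p in each direction of each comparison with control, and the highest gene of each role. Values of Fzd2, Kremen1, Ror2, Vangl2 and Lef1, the base composition and the promoter motifs were added after values were seen.

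The labels number replicates without saying what the numbers mark. After removal of group means, libraries of the same number correlated at 0.243 to 0.810, so the model was also run with a replicate block. A library 2 and a library 3 of different groups correlated at 0.299 to 0.613. Replicate 1 correlated with libraries 2 and 3 of other groups at -0.705 to -0.382. The values set replicate 1 apart and do not show that numbers 2 and 3 mark matched libraries. Other alternatives were another pseudocount, other filters, equal library totals, no prior trend, the compared groups alone, each library left out, and the 3 replicate 1 libraries left out. Gene overlaps were read from GENCODE, where 35 of 40 genes had the same coordinates.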

Additional observations from a re-analysis of the deposited data

How the results depend on the processing

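No Wnt pathway gene passed in any of the 4 comparisons under another pseudocount, other filters, equal totals, no prior trend, the compared groups alone or without any one library. With the replicate block the count also stayed at 0 in each comparison, and that fit changed no call among the 37 genes. Only leaving out the 3 replicate 1 libraries moved the counts, from 0 to 1 higher and 1 lower for Panc02 against control and to 2 higher and 1 lower for both tumour groups. The cause was not tested. Over all genes, the calls for KPC against control went from 34 to 0 without any one control library, to 10 with equal totals, and to 174 with the block.

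Small or widely spread fold changes of the genes named in full turned sign, none of them past the threshold in either direction. Of the other genes, Ror2 (from -0.25 to 0.20), Dvl2 (from -0.01 to 0.20), Kremen1 (from -0.08 to 0.05) and, by less, Fzd4, Lrp5, Csnk1g1 and Csnk1g3 also turned for KPC against control without the replicate 1 libraries. For KPC against control, Tcf7l1 turned from just below 0 to 0.0043 with equal totals, 0.0171 with equal totals without mitochondrial genes and 0.0615 without the replicate 1 libraries, and Daam1 to -0.0013 without them. For Panc02 against KPC, Fzd5 turned to -0.0804 and Fzd7 to -0.0386 without them. Leaving out each library in turn gave these ranges of log2 fold change where a sign turned. For KPC against control, they were Daam1 -0.097 to 0.11, Fzd2 -0.20 to 0.84, Lgr4 -0.0098 to 0.14, Tcf7l1 -0.088 to 0.13, Vangl1 -0.21 to 0.0029 and Wnt5a -0.14 to 0.18. For Panc02 against control, they were Ctnnb1 -0.12 to 0.40, Daam1 -0.031 to 0.17, Tcf7l1 -0.038 to 0.18 and Znrf3 -0.0034 to 0.20. For both tumour groups, they were Daam1 -0.054 to 0.14 and Tcf7l1 -0.060 to 0.16. For Panc02 against KPC, they were Daam1 -0.045 to 0.17, Dkk2 -0.37 to 0.064, Fzd2 -0.36 to 0.71, Fzd3 -0.055 to 0.015, Fzd5 -0.067 to 0.21, Fzd7 -0.060 to 0.14, Lgr4 -0.0059 to 0.16, Tcf7l1 -0.040 to 0.12, Vangl1 -0.16 to 0.083, Wls -0.047 to 0.13 and Wnt9a -0.18 to 0.39.

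Precision is limited by 3 libraries per group, by the unknown depth behind each FPKM value and by the spread between replicate 1 and the others.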

Other observations

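A few Wnt pathway genes varied strongly between libraries of 1 group, and they are named because their values were seen. Apc, the destruction complex scaffold, was at 7.29, 7.02 and 3.31 FPKM in control, 4.73, 6.66 and 6.28 in KPC and 9.11, 3.44 and 5.89 in Panc02 libraries. Its lowest values were thus in control 3 and Panc02 2, and the latter was also the library with the lowest Ctnnb1, at 32.2 FPKM. Csnk1g1, a membrane-bound casein kinase, was at 3.72 FPKM in Panc02 1 and at 1.23 to 2.47 FPKM in the other 8 libraries. Replicate 1 was on average the higher for Csnk1g1, by 0.53 on the log2 scale.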
